A study of Mus musculus with 4 samples.

Results

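Mural cells are the cells that wrap the outside of blood vessels: pericytes lie within the basement membrane of capillaries, and vascular smooth muscle cells encircle arterioles and arteries. In the brain, they are recruited by platelet-derived growth factor B from endothelial cells, which acts on the receptor *Pdgfrb*, and they contribute to vessel tone, the vascular basement membrane and the blood-brain barrier. Single-cell RNA sequencing of sorted forebrain cells at postnatal day 5 captured 566 of them among 17623 cells (3.21%) that held 2000 to 40000 unique molecular identifiers (UMIs), 1000 genes or more and mitochondrial UMIs of 10% or less. A cell was taken as mural where *Rgs5*, *Kcnj8* and *Vtn* together had at least 5 UMIs, *Pdgfrb* had at least 1, *Cldn5* had under 5 and *Dcn* and *Lum* together had at most 2. The members were thus chosen by these raw counts, and the levels of these 7 genes are given as a description.

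There were 4 libraries, each pooled from 3 mice of the C57BL/6 strain (C57BL/6J in the methods of the study), and 2 libraries per genotype. Control mice were NestinCreERT2/tdTomato/Chd8+/+ and mutant mice NestinCreERT2/tdTomato/Chd8+/F, so that both carried the tamoxifen-dependent Cre recombinase under the *Nestin* promoter and the tdTomato reporter, and the mutants also carried 1 loxP-flanked *Chd8* allele. *Chd8* encodes a chromatin remodeler that has been linked to autism. Tamoxifen was given in midfetal life, and tdTomato-positive cells were sorted after papain digestion. *Nestin* marks neural progenitors, and the labels call the sorted cells neuronal, while the cells described here carry the markers of vessel walls: *Nes* itself was counted at 129, 213, 112 and 217 CPM (counts scaled to a total of 1000000 per class and library) in the mural cells of control replicate 1, control replicate 2, mutant replicate 1 and mutant replicate 2, and all sets of 4 values keep this order. Mural cells had a median depth of 10571, 9904, 9793 and 10451 UMIs, in libraries of 79328841, 46274374, 78211984 and 50616343 UMIs in all. The pooling means that the spread between mice was not measured, and a p-value over libraries measures the spread between libraries alone.

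The replicate numbers separated the libraries more than the genotypes did. The median absolute log2 difference of a gene in mural cells was 0.45 between the control replicates and 0.38 between the mutant replicates, against 0.32 and 0.24 between the genotypes within replicates 1 and 2. The file headers name Cell Ranger 7.0.0 for both libraries of replicate 1 and 5.0.1 for both of replicate 2. *Xist*, the RNA of the inactive X chromosome, was counted at 0, 1270, 0 and 1390 CPM in mural cells, and the Y-linked genes *Uty*, *Ddx3y* and *Eif2s3y* were at 0 in both libraries of replicate 2 and between 57.5 and 98.9 CPM in both of replicate 1, whereas the reporting summary of the study states male mice for this assay. Genes that span much of the genome were also counted higher in replicate 1. Among 7885 genes with at least 100 UMIs in mural cells, the 293 that span over 300 kb had a median log2 ratio of replicate 1 over replicate 2 of 1.98 in controls and 2.11 in mutants, against 0.07 and -0.23 for the 1750 genes of at most 10 kb. *Prkg1*, a cGMP-dependent kinase of vascular relaxation that spans 1200545 bases of chromosome 19 (30564489 to 31765033, mm10), was the clearest case among the genes of mural function, at 1700, 138, 1880 and 106 CPM. Software version, sex of the pooled mice and replicate cannot be told apart. Control replicate 1 held 35 mural cells, the fewest of the libraries, and stood apart in several measures given below. Pairs of libraries shared 8 to 21 barcodes among all barcodes, and no barcode was shared between the mural cells of any pair.

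Of the marker genes of mural cells, *Rgs5*, *Vtn* and *Pdgfrb* were high in these cells and low in the other classes, and *Bgn* was shared with them. The mural cells were chosen for counts of the first named genes. Endothelial cells, fibroblasts and neurons were chosen for under 5 UMIs of *Rgs5*, *Kcnj8* and *Vtn* together. The contrast in *Rgs5*, *Kcnj8* and *Vtn* was thus set by the choice of cells and is a description. *Rgs5*, a regulator of G-protein signalling on chromosome 1, was counted at 6800, 10700, 9120 and 10600 CPM, against 7.21 CPM in endothelial cells and 17.0 CPM in fibroblasts pooled over the libraries. *Vtn*, which encodes the adhesion protein vitronectin, was at 1140, 2340, 1860 and 3280 CPM, and *Pdgfrb* at 438, 849, 752 and 961 CPM. *Kcnj8*, the pore subunit of a vascular potassium channel, was at 169, 630, 444 and 752 CPM. All 4 of these genes were lowest in control replicate 1, and both libraries of replicate 2 were above both of replicate 1. *Bgn*, a small proteoglycan that the rule did not use, was at 447, 721, 433 and 1100 CPM and was less selective, at 263 CPM in endothelial cells and 360 CPM in fibroblasts. A *Bgn* UMI was found in 95.4% of mural cells and 2.04% of neurons, which should lack it, at median depths of 9793 to 10571 UMIs in mural cells and 7467 to 9507 UMIs in neurons of the libraries.

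**Figure D1:**
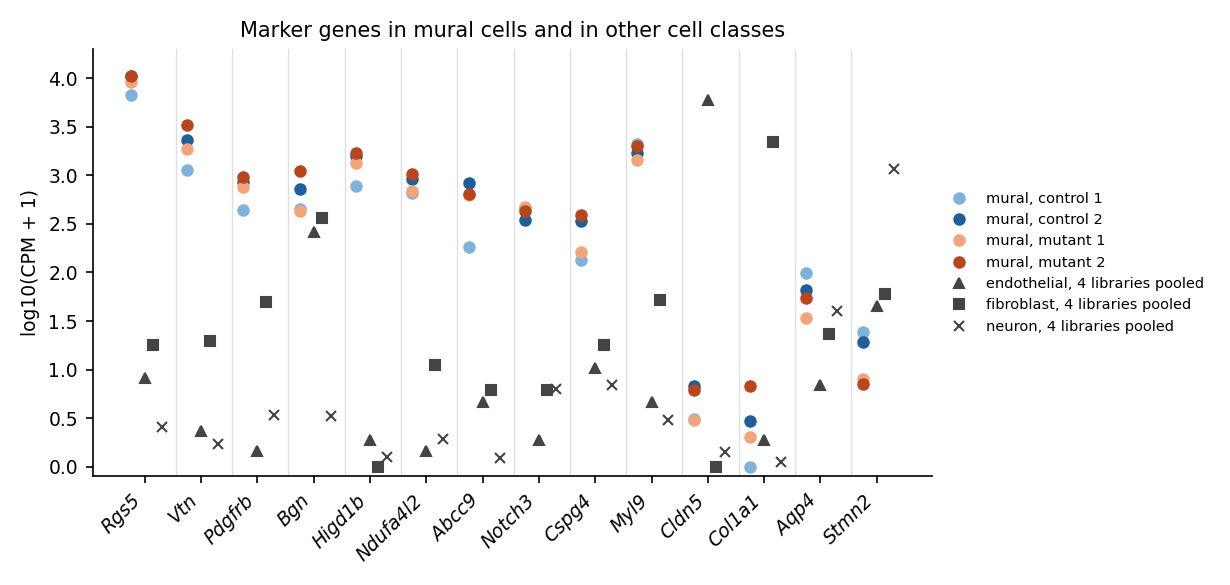
Level of 14 marker genes on a log10(CPM + 1) scale. Coloured points are the mural cells of each of the 4 libraries, and grey symbols are endothelial cells (triangles), fibroblasts (squares) and neurons (crosses) pooled over the libraries. *Rgs5* lay between 6800 and 10700 CPM in mural cells and at 7.21 CPM in endothelial cells, while *Cldn5*, at 6040 CPM in endothelial cells, was at most 5.82 CPM in mural cells. Counts of both genes were used to choose both classes.

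Defining markers of the other vessel cells were near the floor. The rule limited *Cldn5* and *Lum* in mural cells, and endothelial cells were chosen for *Cldn5* and *Pecam1*, so their values are a description. *Cdh5* and *Col1a1* were not used to choose cells. The endothelial genes *Cldn5*, *Pecam1* and *Cdh5* were at most 5.82, 2.12 and 0.485 CPM in any library of mural cells, against 6040, 467 and 456 CPM in endothelial cells, and the fibroblast genes *Col1a1* and *Lum* were at most 5.80 CPM and at 0. Other members of both lists were present: of the 16 endothelial genes, *Esam*, *Emcn*, *Flt1* and *Egfl7* had the most UMIs, with *Esam*, a junction protein, at 265, 214, 262 and 303 CPM, and the list summed to 390, 453, 468 and 575 CPM. Of the 14 fibroblast genes, *Igf2*, *Col3a1*, *Col1a2* and *Ogn* had the most, and the list summed to 1010, 2470, 1080 and 1670 CPM, with the growth factor *Igf2* at 203, 1450, 355 and 506 CPM. *Lum* was the only gene of that list at 0 in all libraries.

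The 12 astrocyte genes summed to 6320, 2590, 4120 and 2780 CPM in mural cells, led by *Fabp7* at 3500, 1070, 2240 and 1040 CPM, against 8130 CPM in all other cells pooled. A mural cell with at least 10 UMIs of the markers of another type was counted as mixed, and 45 of 566 were (7.95%), of which 30 carried astrocyte markers. Their share was 22.9% and 6.88% of the control libraries and 12.8% and 5.08% of the mutant libraries. Without these cells the astrocyte list summed to 797, 1350, 918 and 1720 CPM and *Fabp7* was at 209, 408, 223 and 488 CPM. The 12 microglial genes summed to 76.2, 83.5, 360 and 43.0 CPM, the 11 oligodendrocyte lineage genes to 91.1, 137, 498 and 133 CPM with *Lhfpl3* leading, the 14 neuronal genes to 50.2 to 104 CPM, and the 6 blood genes to 2.12 to 15 CPM. The 8 ependymal genes summed to 188 to 276 CPM, most of it *Rarres2*, which is not specific to cilia.

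Of the members, 4 had 5 UMIs of *Rgs5*, *Kcnj8* and *Vtn*, the least allowed, against 12 cells just outside with 4, and the median of this sum was 97.0, 148, 118 and 160.5 UMIs in the libraries. For *Pdgfrb*, 30 members had 1 UMI and 58 cells met the other conditions with 0. The *Cldn5* limit kept out 11 cells and the *Dcn* and *Lum* limit 60.

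Mural cells were a larger share of the cells in replicate 2 than in replicate 1. In controls, they made up 35 of 5710 cells of replicate 1 (0.613%, 95% exact Clopper-Pearson interval 0.427 to 0.851%) and 189 of 2973 cells of replicate 2 (6.36%, 5.51 to 7.29%). In mutants, they made up 86 of 5659 cells of replicate 1 (1.52%, 1.22 to 1.87%) and 256 of 3281 cells of replicate 2 (7.80%, 6.91 to 8.77%). These intervals cover counting error alone. The groups overlapped: each genotype had 1 library with a low share and 1 with a high share. The mean was 3.49% ± 4.06 (SD, n = 2) in controls and 4.66% ± 4.44 (SD, n = 2) in mutants, a difference of 1.18 percentage points (two-sided exact permutation test, p = 0.667, where 0.33 is the smallest p that 2 libraries against 2 allow). Within replicates the mutant share was the higher, by 0.907 points (2.48-fold) in replicate 1 and by 1.45 points (1.23-fold) in replicate 2. Leaving out control replicate 1 or mutant replicate 2 turned the difference of the means to -1.70 and -1.97 points. Endothelial cells, taken by *Cldn5* and *Pecam1*, were 0.140%, 0.538%, 1.02% and 1.77% of the cells, and the sort and the dissociation can set such shares. The median share of mitochondrial UMIs in mural cells was 2.60%, 6.29%, 3.5% and 5.91%, and a limit of 5% in place of 10% gave mural shares of 0.610%, 2.81%, 1.43% and 5.20%.

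**Figure D2:**
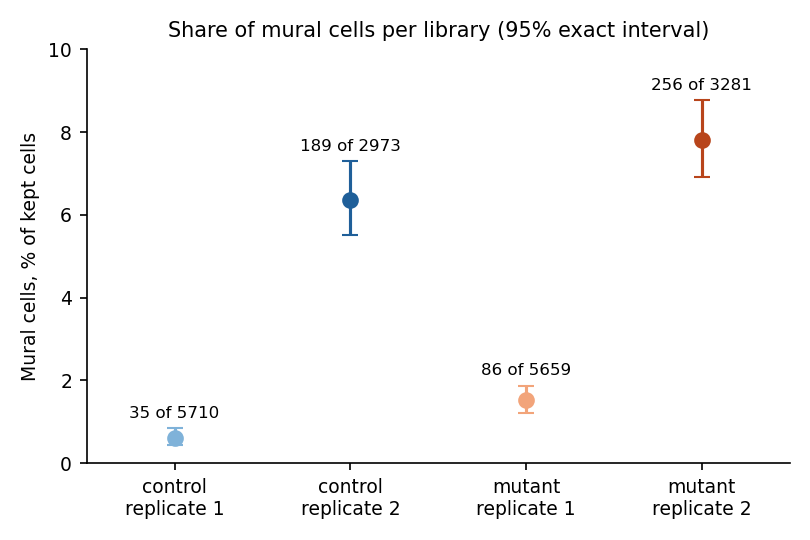
Share of mural cells among the cells kept in each library, in percent, with 95% exact Clopper-Pearson intervals. The labels give the number of mural cells and of all cells. Both libraries of replicate 2 (6.36% and 7.80%) lie above both of replicate 1 (0.613% and 1.52%).

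Against all other cells of the same libraries, mural cells carried a broad program of vessel wall genes. In edgeR's quasi-likelihood test on summed counts with the library as a block, 1733 of 16223 genes (10.7%) were higher in mural cells and 3505 (21.6%) were lower, at a Benjamini-Hochberg adjusted p under 0.05 and a log2 change of at least 1, with the 7 genes of the rule left out. The classes were set by known marker genes in these same cells, so these calls describe the class and are no independent evidence for its name. Of the 32 genes of the pericyte identity list, 28 were tested beside the genes of the rule and all 28 were higher, with a median log2 change of 6.16 against -0.20 for all genes. *Higd1b*, a mitochondrial protein of the hypoxia-inducible family, led them at 777, 1570, 1350 and 1720 CPM in mural cells and a mean of 2.62 CPM elsewhere, a log2 change of 9.89 ± 0.684 (SE; adjusted p = 4.66e-06). *Abcc9*, the sulfonylurea receptor that pairs with *Kcnj8*, was at 184, 834, 630 and 645 CPM against 1.66 CPM, a log2 change of 9.09 ± 0.464 (SE; adjusted p = 7.32e-07). Control replicate 1 was the lowest library for both, and in every library both genes were over 100 CPM in mural cells and at most 6.52 CPM in the others.

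The remaining named genes with the largest rise are given singly and were not tested as a group. *Gja4*, the gap junction protein connexin 37, was higher by 8.28 on the log2 scale, the thromboxane receptor *Tbxa2r* by 8.28, the muscle intermediate filament *Des* by 8.25 and *Carmn*, a long noncoding RNA of smooth muscle, by 8.18. The small heat shock protein *Hspb2*, the T-box factor *Tbx2*, the transporter ATPase *Atp13a5* and the smooth muscle actin *Acta2* were higher by 8.14, 7.77, 7.72 and 7.70. The 10 named genes with the largest fall in mural cells are known from other cells: *Tmem212*, *Dynlrb2*, *Rsph1* and *1700094D03Rik* of ciliated cells, the choroid plexus gene *Ttr*, the myelin gene *Mbp*, *Igfbpl1* and *Cd24a* of young neurons, the hemoglobin gene *Hbb-bs* and the synaptic gene *Nrxn3*, with log2 changes from -6.66 (*Tmem212*) to -3.97 (*Nrxn3*). All 13 neuronal genes tested, all 11 oligodendrocyte lineage genes and 11 of 12 astrocyte genes were lower, against 21.6% of all genes. So were 7 of 12 microglial and 7 of 8 ependymal genes. Of 15 endothelial genes tested, 7 were lower and 4 higher, and of 12 fibroblast genes 3 were lower and 5 higher, against 10.7% higher of all genes.

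Genes of the contractile apparatus rose together in mural cells. Of the 26 listed, 24 were higher than in all other cells and none was lower, against 10.7% and 21.6% of all genes (median log2 5.45 against -0.20). *Cald1*, an actin-binding regulator of contraction, was at 2780, 3860, 2900 and 4380 CPM and was found in 98.8% of mural cells and 51.7% of neurons. The myosin light chain *Myl9* was at 2110, 1720, 1430 and 2020 CPM and was found in 97.5% of mural cells, against 1.80% of neurons. *Acta2* was at 5790, 2320, 2490 and 2390 CPM but in only 36.0% of mural cells and 0.670% of neurons, and *Tagln*, an actin cross-linker of smooth muscle, at 3380, 1180, 1500 and 1200 CPM in 33.2% and 0.748%. In both *Acta2* and *Tagln*, control replicate 1 was far above the other libraries, which lay close together. *Srf*, the transcription factor that binds the CArG box, was counted at 4.24, 9.71, 7.07 and 13.3 CPM, and its coactivator *Myocd* at 38.1, 19.4, 38.4 and 10.2 CPM.

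The CArG box is a sequence of 10 bases, CC and GG around 6 bases of A or T, which is known from promoters of smooth muscle genes and reads alike on both strands. RefSeq promoters (250 bases before to 50 after a gene's start, GRCm38.p6) were held for 21 of the 26 contractile genes, and 2 of them (9.52%) contained an exact CArG box, against 488 of all 27025 genes (1.81%). They are shown because they are the contractile genes with an exact match, with the box in capitals. The window of *Myl9* lies at chr2:156775273-156775342 on the plus strand with the box starting 161 bases before the gene's start, and that of *Srf* at chr17:46556185-46556274 on the minus strand with boxes starting 82 and 62 bases before it.
Myl9: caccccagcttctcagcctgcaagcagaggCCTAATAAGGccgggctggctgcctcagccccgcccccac
Srf: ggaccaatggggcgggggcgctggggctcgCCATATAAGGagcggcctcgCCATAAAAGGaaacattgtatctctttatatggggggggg
Among the other lists, *Lama2*, *Tyms*, *Zfp36* and *Igf2* had an exact match. A match is a description of these letters and was not linked to any level.

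Receptors and signalling proteins of vessel tone were selective for mural cells. Of 24 channels, receptors and cyclic nucleotide genes, 22 were tested beside the rule, of which 19 were higher than in all other cells and 2 were lower, against 10.7% and 21.6% of all genes. The subunits of soluble guanylate cyclase, the receptor of nitric oxide, were both high: *Gucy1a1* at 383, 1090, 507 and 715 CPM and *Gucy1b1* at 282, 517, 403 and 419 CPM. *Gucy1b1* had no UMI in the 132 endothelial cells of the 3 libraries compared, so that it was at least 304-fold higher in mural cells (a floor of 3 UMIs over the group). The endothelin receptor *Ednra* was at 205, 323, 371 and 287 CPM, at least 212-fold higher than in endothelial cells, where it also had no UMI. *Ednrb*, the other endothelin receptor, was at 123, 33.5, 55.5 and 50.8 CPM, below the 486 CPM of all other cells.

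The mural recruitment list included ligands and receptors of both vessel classes, of which *Pdgfb*, *Tek* and *Angpt1* are given as examples chosen after their values were seen. *Pdgfb* was at 4.24, 17.0, 25.2 and 15.4 CPM in mural cells and 298 CPM in endothelial cells, and the angiopoietin receptor *Tek* at 2.12, 8.25, 15.1 and 12.6 CPM against 268 CPM. *Angpt1*, the ligand of *Tek*, went the other way, at 59.3, 66.0, 90.8 and 49.1 CPM in mural cells and 0.901 CPM in endothelial cells. Of 28 recruitment and signalling genes tested against endothelial cells, 5 were higher in mural cells and 10 lower, with a median log2 change of -0.34 against 0.03 for all genes. Of all genes in that comparison, 14.5% were higher and 11.7% lower, so the 5 that were higher are near the share of all genes. The Notch receptor *Notch3* was at 466, 348, 469 and 425 CPM and its target *Heyl* at 180, 251, 255 and 237 CPM, with *Heyl* at 0 UMIs in endothelial cells (at least 166-fold higher). *Itgb1* and *Id3* had the most UMIs of the list beside *Pdgfrb* and *Notch3*; *Itgb1*, an integrin chain, was at 705, 1480, 787 and 884 CPM.

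Basement membrane genes were the other large group. Against all other cells, 26 of the 32 matrix genes tested were higher and 2 lower, against 10.7% and 21.6% of all genes (median log2 3.12). Against endothelial cells, 14 of 26 were higher and 2 lower, against 14.5% and 11.7% of all genes. The type IV collagen chain *Col4a1* was at 2120, 4260, 2200 and 3760 CPM, its partner *Col4a2* at 856, 2280, 1040 and 1820 CPM, and the collagen-binding integrin *Itga1* at 1080, 2080, 1510 and 1980 CPM. Both libraries of replicate 2 were above both of replicate 1 in these 3 genes. *Sparc*, a collagen-binding glycoprotein, was at 2270, 2770, 2070 and 3420 CPM, and endothelial cells had more of it (4910 CPM). The fibril collagen *Col1a1* was near the floor in mural cells, at 0, 1.94, 1.01 and 5.80 CPM, while *Col1a2*, whose product joins the same fibrils, was at 332, 397, 263 and 406 CPM and *Col3a1* at 299, 441, 252 and 525 CPM.

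Of 19 transporters, 18 were tested beside all other cells, of which 9 were higher and 1 lower, against 10.7% and 21.6% of all genes. The amino acid transporter *Slc38a11* was at 152, 114, 152 and 135 CPM and the folate carrier *Slc19a1* at 188, 209, 233 and 306 CPM. *Slc38a11* was at 1.10 CPM in all other cells and had no UMI in endothelial cells or fibroblasts. *Slc1a3*, the glutamate transporter of astrocytes, had 1130, 306, 627 and 217 CPM, which fell to 9.80, 50.5, 40.8 and 66.5 CPM without the mixed cells.

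Against endothelial cells (531 mural and 132 endothelial cells in the 3 libraries with at least 10 of each), 1348 of 9310 genes (14.5%) were higher in mural cells and 1092 (11.7%) lower. The genes of at least 100 CPM with the largest fitted log2 changes were *Gucy1b1*, *Cox4i2*, *Ednra*, *Heyl*, *Higd1b*, *Tbx2*, *Myh11*, *Adap2*, *Des* and *Foxs1*, of which *Higd1b* alone had a UMI in endothelial cells (1 UMI against 9616, a ratio of 3260 with a 95% counting interval of 585 to 129000). Those without a UMI were at least 116-fold (*Foxs1*, a forkhead factor) to 304-fold higher, which are lower bounds, so that their order is not a measured one. Ratios measured on 1 or 2 endothelial UMIs, such as 1890 for *Ndufa4l2* (95% counting interval 340 to 74800) and 1840 for *Myl9* (510 to 15200), were above these bounds. The genes that were lower included the adhesion receptor *Adgrl4*, at 0 UMIs in mural cells and at least 1250-fold higher in endothelial cells, *Cdh5*, the cadherin of endothelial junctions (log2 -10.07 ± 0.255, SE; adjusted p = 7.53e-10), and the blood-brain barrier transporter *Slc38a5* (log2 -10.26 ± 0.22, SE; adjusted p = 2.84e-10). *AU021092*, *Ctla2a*, *Rassf9*, *Prnd*, *Fgfbp1*, *Gimap1* and *Myct1* completed the 10 with the largest fitted fall. Hemoglobin RNA was also counted in the endothelial class, though not in every library at a level to be tested. Pooled over these libraries, *Hbb-bs* was at 5630 CPM against 5.18 CPM in mural cells, and *Hba-a1* at 2310 against 1.84 CPM. No gene of the blood list was tested here, since none passed the filter on low counts, which asks for counts in as many sums as a class has libraries. The pooled values thus do not stand for every endothelial library. The source of this RNA was not tested. Of the lists, 25 of 28 pericyte identity genes, 19 of 22 contractile genes, 15 of 16 channels and receptors and 14 of 16 transporters were higher in mural cells, and 13 of 14 endothelial genes were lower. Of 17 cell-cycle genes, 8 were higher, and 3 were without mutant replicate 1.

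Against fibroblasts (342 mural cells and 27 fibroblasts in both mutant libraries, the only ones with at least 10 of each), 640 of 8656 genes (7.39%) were higher in mural cells and 558 (6.45%) lower. *Acta2*, *Higd1b*, *Gja4*, *Mcam*, *Gucy1b1*, *Atp13a5*, *Itga4*, *Art3*, *Esam* and *Heyl* had the largest fitted log2 changes, and none had a UMI in these fibroblasts, so that their order is not a measured one. *Ndufa4l2*, with 1 UMI in fibroblasts, had a ratio of 429 (95% counting interval 77 to 17000), which is above the bound of each of these 10. *Acta2* was at least 365-fold and *Mcam*, an adhesion protein of vessels, at least 68.6-fold higher. The matrix genes did not go 1 way here: 10 of 29 tested were higher and 7 were lower (median log2 0.30 against 0.07 for all genes). *Igfbp6*, *Bnc2*, *Lypd2*, *Mfap5*, *Eya2*, *Stra6*, *Slc47a1*, *Cdh1* and *Shisa3* were at 0 UMIs in mural cells, with *Igfbp6*, which binds insulin-like growth factors, at least 838-fold higher in fibroblasts, and the matrix protein *Ccn3* had 1 UMI against 756. Of the lists, 22 of 28 pericyte identity genes, 17 of 20 contractile genes and 15 of 16 channels and receptors were higher in mural cells. DESeq2 called 12, 8 and 7 of them higher, against 3.07% of all genes. Of 10 fibroblast genes, 7 were lower. The fibroblast class was set by marker counts alone, and its make-up was not tested. It also held *Cdh5* (139 CPM) and *Abcb1a* (88.1 CPM) of the endothelial list, while *Pecam1* and *Flt1* of that list had no UMI. The control libraries gave no value here, since they held 6 and 2 fibroblasts.

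Within the mural cells, the summed counts of *Acta2*, *Tagln* and *Myh11* were mostly either low or high. Together they had 0 UMIs in 313 of the 566 cells, 1 to 4 in 78, 5 to 9 in 21, 10 to 14 in 12 and at least 15 in 142, of which 91 had at least 100 and the highest 825. Cells with at least 10 were called contractile-high; this is a range of a count and not a cell type, and the 33 cells from 5 to 14 lie near the limit. In controls, 20 of 35 mural cells of replicate 1 (57.1%, 95% exact interval 39.4 to 73.7%) and 49 of 189 of replicate 2 (25.9%, 19.8 to 32.8%) were contractile-high. In mutants, they were 27 of 86 of replicate 1 (31.4%, 21.8 to 42.3%) and 58 of 256 of replicate 2 (22.7%, 17.7 to 28.3%). No neuron passed the same limit (0 of 1588, 411, 1439 and 441, with upper 95% exact limits of 0.232 to 0.894%), and 0.247 to 0.503% of all other cells did. The mean was 41.5% ± 22.1 (SD, n = 2) in controls and 27.0% ± 6.18 (SD, n = 2) in mutants, a difference of -14.5 points (two-sided exact permutation test, p = 0.667). It was -25.7 points in replicate 1 and -3.27 points in replicate 2, and without control replicate 1 it was 1.10 points. Thinned to 4000 UMIs a cell, the shares were 51.4%, 22.0%, 24.4% and 19.2%.

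**Figure D3:**
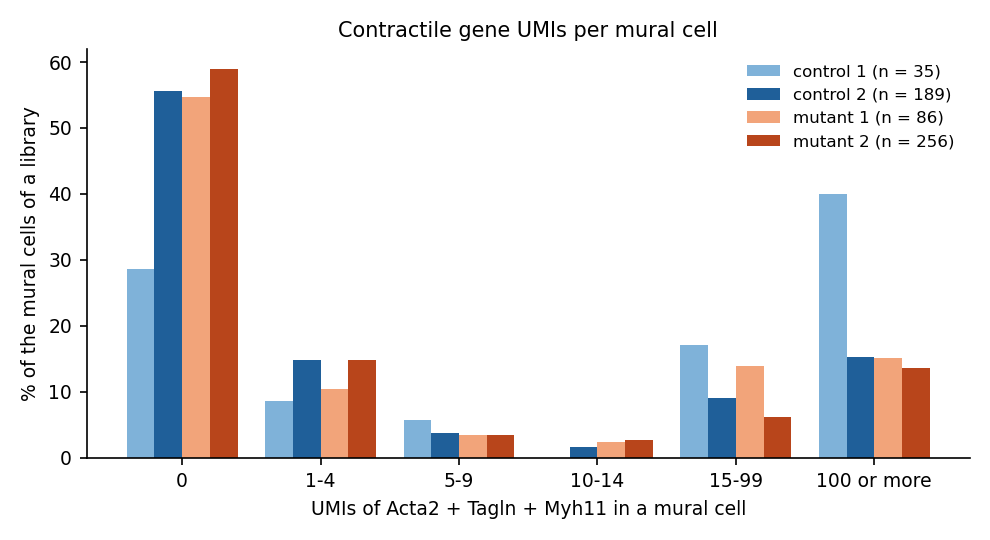
Summed UMIs of *Acta2*, *Tagln* and *Myh11* per mural cell, in 6 bins, as the percent of the mural cells of each library. Most cells had 0 or at least 15 UMIs, and few had 5 to 14. Control replicate 1, with 35 mural cells, had the largest share at 100 or more.

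With the library as a block, 325 of 7841 genes (4.14%) were higher and 428 (5.46%) lower in the 154 contractile-high cells than in the 412 contractile-low cells, leaving out the genes of the rule and the 3 that set the limit. *Rgs5*, at 7510, 9920, 9140 and 9680 CPM in high and 5730, 11000, 9120 and 11000 CPM in low cells, had overlapping values. Of the 19 other contractile genes tested, 14 were higher and none lower (median log2 1.68 against -0.01). The cells were split by 3 genes of this same list, so these calls describe the split and are no independent evidence for it. *Actg2*, the gamma actin of smooth muscle, was at 248, 337, 142 and 381 CPM in high cells and had 3 UMIs in all low cells, a ratio of 455 with a 95% counting interval of 155 to 2210. *Cnn1* (calponin), *Myocd*, *Lmod1*, *Tpm1* and *Tpm2* were higher by 7.80, 5.25, 4.03, 2.75 and 3.10 on the log2 scale, whereas *Cald1* had a log2 change of 0.55, under the limit of 1.

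Of 26 matrix genes tested, 9 were higher in the contractile-high cells and none lower, while 17 did not pass (median log2 0.39 against -0.01 for all genes). Of all genes in this comparison, 4.14% were higher and 5.46% lower, which also holds for the counts below. *Eln*, which encodes the elastin of arterial walls, was at 909, 993, 614 and 702 CPM in high cells and 10.6, 4.16, 3.10 and 3.27 CPM in low cells, a log2 change of 7.68 ± 0.178 (SE; adjusted p = 2.67e-13), and the groups did not overlap in any library. *Mgp*, an inhibitor of calcification, was higher by 2.53, the laminin chain *Lama5* by 4.98 and the integrin chain *Itga7* by 2.73. *Fmod*, *Tinagl1* and *Col8a1*, which are secreted matrix proteins, were higher by 6.90, 5.14 and 5.10, as were *Rcan2* (5.85), *Cd93* (5.35), *Kcnab1* (5.18), *Myom1* (4.94) and *Anxa1* (4.73). Of the 23 recruitment genes tested, *Angpt2*, *Ltbp1*, *Jag1*, *Tgfb2* and *Hey2* were higher, by 1.14 to 2.91, and 6 were lower, a count that was 3 without the mixed cells. Among immediate early and stress genes, 4 of 13 were higher (*Atf3*, *Hspa1a*, *Nr4a1* and *Zfp36*) and none lower, a count that was 8 without control replicate 1 or mutant replicate 1 and 2 without control replicate 2 or mutant replicate 2. *Fos*, *Jun*, *Junb* and *Btg2* had the most UMIs of that list, with *Fos* at 739, 277, 503 and 175 CPM over all mural cells, higher in both libraries of replicate 1.

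*Abcc9* and *Atp13a5* were lower in contractile-high cells. Of the 13 transporters tested, 6 were lower and 2 higher, and 5 were lower without the mixed cells. *Abcc9* was at 17.7, 104, 101 and 91.4 CPM in high cells and 433, 1150, 913 and 848 CPM in low cells, a log2 change of -3.33 ± 0.143 (SE; adjusted p = 2.99e-10), and *Atp13a5* at 31.8, 24.3, 69.5 and 27.9 CPM against 259, 353, 597 and 378 CPM (-3.43 ± 0.161, SE; adjusted p = 7.64e-10). The matrix assembly gene *Itih5*, the forkhead factor *Foxq1*, the sialoprotein *Emcn* and the secreted *Cthrc1* were lower in high cells by 3.48, 3.10, 3.07 and 3.0 on the log2 scale. Of the pericyte identity list, 7 of 28 genes were lower (among them *Abcc9*, *Atp13a5*, *Art3*, *Foxf2*, *Higd1b* and *Anpep*) and 2 higher (*Gja4* and *Mcam*), of which neither was called without the mixed cells, while 8 were then lower. *Kcnj8*, a gene of the rule, was at 35.4, 164, 127 and 185 CPM in high and 370, 829, 614 and 960 CPM in low cells.

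Other lower genes moved with the mixed cells. Of the 12 astrocyte genes, 10 were tested and 8 were lower in the contractile-high cells, such as *Fabp7*, which was at 7830, 1270, 3340 and 1310 CPM in low cells. Only 4 of the 154 high cells were mixed against 41 of the 412 low cells, and without mixed cells 4 astrocyte genes were tested and none was called. Of the 10 genes with the largest fall, *Slc1a3* then changed by -0.70 in place of -2.99, and *Tnc* and *Nkain2* were too low to be tested. *Nkain2*, at 871, 0, 288 and 0.467 CPM in low cells, was at or near 0 in replicate 2. *Emcn* changed by -3.29 without mixed cells. *Tenm3* was lower by 2.92. The contractile-high cells also had the higher depth, with medians of 11751 to 12987.5 UMIs against 8730 to 9808, whose part was not tested.

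**Figure D4:**
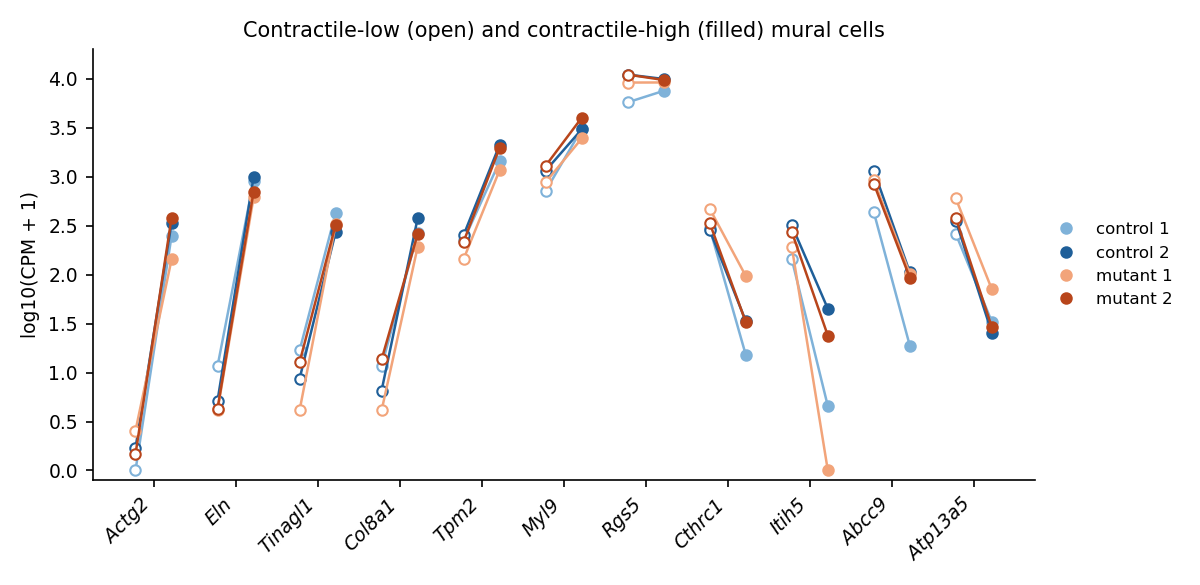
Level of 11 genes on a log10(CPM + 1) scale in contractile-low cells (open points) and contractile-high cells (filled points), with a line for each of the 4 libraries. *Eln* rose from at most 10.6 CPM to at least 614 CPM and *Abcc9* fell from at least 433 CPM to at most 104 CPM, while *Rgs5* stayed between 5730 and 11000 CPM.

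UMIs of proliferation genes were found in some mural cells. *Mki67* and *Top2a* together had at least 2 UMIs in 25.7%, 21.2%, 18.6% and 20.7% of mural cells. The share was 18.8%, 29.0%, 19.9% and 25.9% in all other cells, above the mural share in 3 of 4 libraries, and 13.4 to 21.3% in neurons, and both can include dividing cells. In cells with at least 20 UMIs of the myelin gene *Mbp*, a background chosen after the values were seen, it was 6.10%, 0%, 1.40% and 0% of 82, 20, 143 and 39 cells, at median depths of 21034.5 to 25759 UMIs. The counts of 0 allow shares of up to 15% and 7.69%. The mean over libraries was 23.4% ± 3.22 (SD, n = 2) in controls and 19.7% ± 1.48 (SD, n = 2) in mutants, a difference of -3.79 points (two-sided exact permutation test, p = 0.33, the smallest possible). At 4000 UMIs a cell the shares were 11.4%, 16.1%, 14.1% and 18.8%, and the difference turned to 2.66 points (exact permutation test, p = 0.667). None of the 17 cell-cycle genes was called between contractile-high and contractile-low cells, against 4.14% higher and 5.46% lower of all genes, and 1 was higher than in all other cells, against 10.7% of all genes, so that these counts say little about the list. Among these genes *Hmgb2*, *Top2a*, *Ube2c* and *Pclaf* had the most UMIs, with *Top2a* at 174, 263, 163 and 248 CPM.

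The genotypes were compared over the mural cells of the 4 libraries, which held 472192, 2060362, 990725 and 2930941 UMIs. *Chd8* itself (chromosome 14, 52198151 to 52257780, mm10) was at 25.4 and 64.6 CPM in controls and 50.5 and 75.4 CPM in mutants, overlapping values with a log2 change of 0.37 ± 0.553 (SE; edgeR quasi-likelihood test, adjusted p = 1), and -0.14 without control replicate 1. Counts per gene cannot show whether the loxP-flanked exons were removed, and the tables have no row for tdTomato, so that mural cells that recombined and cells carried over in the sort cannot be told apart. The comparison is therefore one of mural cells from mice of the 2 genotypes, whether or not these cells recombined *Chd8*. None of 10691 genes tested was called at an adjusted p under 0.05 (0%), and 34 had an unadjusted p under 0.05 (0.318%). DESeq2 called none and had 17. With no difference at all, about 0.05 of the genes would fall under that limit, so the test without a block was conservative. It left the difference between replicates in its error, and the lack of calls is weak evidence of no difference. With the replicate number as a block, 1 gene was called and 397 had an unadjusted p under 0.05 (3.71%). It was *Unc5d*, a netrin receptor of neurons (chromosome 8, 28646717 to 29219636), at 101 UMIs in control replicate 1 and 14, 10 and 3 UMIs in the others, or 214, 6.79, 10.1 and 1.02 CPM (log2 -4.0 ± 0.443, SE; adjusted p = 0.0257 with the block and 1 in the main fit). The edgeR test with no block and no filter on low counts also called *Unc5d* (log2 -4.46 ± 0.566, SE, adjusted p = 3.16e-11). Without the mixed cells it had 0, 0, 1 and 2 UMIs, so that nearly all of its counts came from cells with markers of another type.

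Among the genes of the lists, *Myh11*, the myosin heavy chain of smooth muscle, had the smallest unadjusted p, and it is named here after its values were seen. It was at 438 and 369 CPM in controls and 181 and 184 CPM in mutants, which did not overlap, a log2 change of -1.17 ± 0.242 (SE; unadjusted p = 0.00463, adjusted p = 1). It was -1.28 in replicate 1 and -1.0 in replicate 2. *Eln* was at 549 and 300 CPM against 216 and 191 CPM (log2 -1.07 ± 0.33, SE; adjusted p = 1), also chosen after its values were seen. *Myh11* is among the genes that set the contractile limit, and *Eln* was higher in the contractile-high cells. The share of contractile-high cells was 57.1% and 25.9% in controls and 31.4% and 22.7% in mutants. Its part in these levels was not tested. No gene of any list was called. The median log2 change was 0.33 over the 32 pericyte identity genes tested (0.43 in replicate 1 and 0.23 in replicate 2) and -0.37 over the 24 contractile genes tested (-0.54 and -0.19), against 0.00 for all genes. The 32 include *Rgs5*, *Kcnj8*, *Vtn* and *Pdgfrb*, whose counts chose the cells, so this median is a description. Channels and receptors (22 tested) had a median of 0.13, recruitment genes (30 tested) 0.10 and transporters (16 tested) 0.19. Within replicates 1 and 2 these medians were 0.47 and -0.14, 0.17 and -0.05, and 0.27 and 0.06. Matrix genes (29 tested) had a median of -0.16, while the medians within replicates were 0.02 and 0.04. Some lists of other cell types had larger medians. These were 0.41 for endothelial (6 tested; 0.55 and 0.51 within replicates), -0.45 for astrocyte (11 tested; -0.64 and -0.05) and 0.66 for oligodendrocyte lineage genes (9 tested; 1.16 and -0.19). The 4 microglial genes tested had 1.17 (2.20 and -3.39), the 4 neuronal genes -0.32 and the 7 fibroblast genes -0.14.

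**Figure D5:**
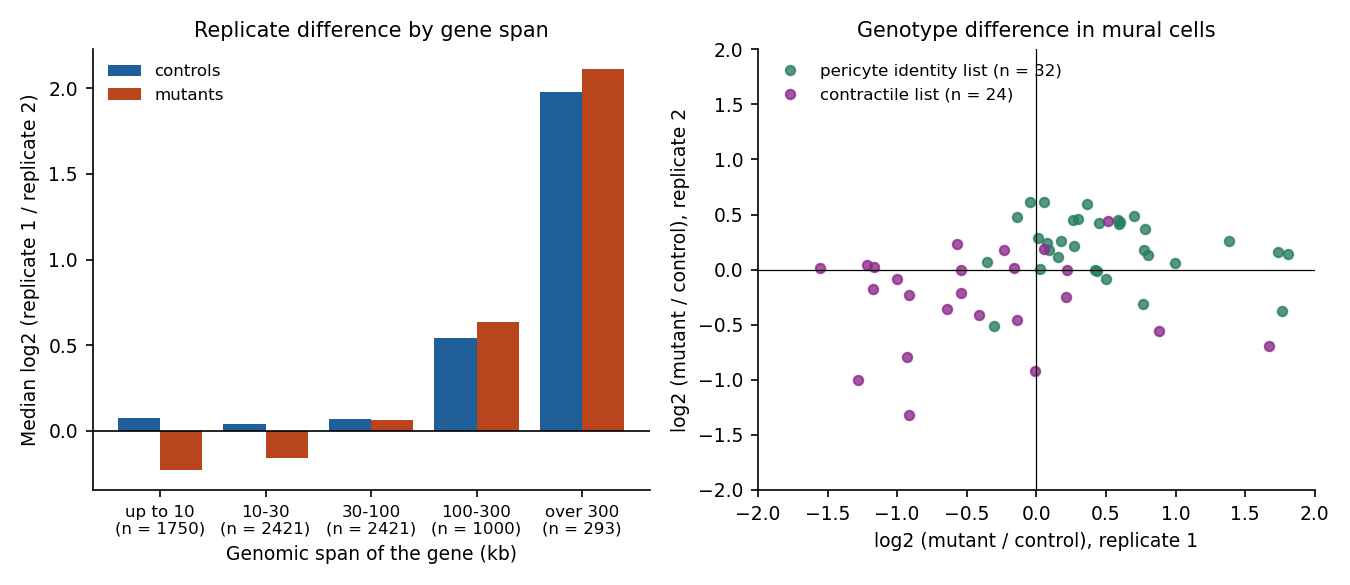
Left, the median log2 ratio of replicate 1 over replicate 2 in mural cells by genomic span of the gene, in controls and mutants, which rises to 1.98 and 2.11 above 300 kb. Right, the log2 ratio of mutant over control in replicate 1 (horizontal) and replicate 2 (vertical) for the genes of the pericyte identity list (32, with the 4 that chose the cells) and of the contractile list (24), of which none passed the test.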

How the data were processed

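The authors sorted tdTomato-positive cells, made 10x Genomics 3′ libraries and aligned reads to mm10 with Cell Ranger (3.0 per the labels, 7.0.0 and 5.0.1 per the file headers), and deposited for each of 4 libraries a table of unnormalized counts (UMIs for each gene in each barcode), with 27742 barcodes in all. Versions from 7.0.0 on count intronic reads unless told otherwise; the setting used is not given in the sources used here. Cells were filtered and classed by raw UMIs as stated with the results. Endothelial cells had at least 5 *Cldn5* and 1 *Pecam1* UMIs, fibroblasts at least 5 of *Dcn* and *Lum*, and neurons at least 10 of *Stmn2* and *Tubb3*, each without the marker counts of the other vessel classes. No doublet caller was run; mixed cells were counted and left out as an alternative.

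CPM are 1000000 times the summed counts of a class over its total. Summed counts were tested with edgeR 4.0.16 in R 4.3.3 (filterByExpr, TMM, quasi-likelihood test), genotype without a block, and classes with the library as a block, with Benjamini-Hochberg adjustment over all genes tested. Same-numbered libraries share a software version and were taken as pairs. Over 7888 genes, the log2 differences between replicates correlated between controls and mutants (r = 0.696), and the genotype differences of the 2 replicates did not (r = -0.039). The main genotype test had no replicate block, so the difference shared by the replicates stayed in its error. A test with the replicate block was an alternative. Others were DESeq2 1.42.0, its size factors, filters on low counts, other limits, thinning, contractile-high cells left out and each library left out. Shares were compared by exact permutation over 6 assignments, and intervals are exact 95% binomial intervals.

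The members, lists and tests were chosen with earlier results of these data known. Named genes are those of the rule, *Chd8*, *Nes* and sex-linked genes, called genes with the largest changes (at least 100 CPM for classes), and the 4 genes of each list with the highest CPM. Others were chosen after their values were seen, as examples of their lists. Positions are from GENCODE vM21 (mm10), which held 99.6% of the genes. Python 3.11.15, numpy 2.4.6, scipy 1.17.1, pandas 2.3.3 and matplotlib 3.10.9 were used. Results for some genes are not reported here.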

Additional observations from a re-analysis of the deposited data

How the results depend on the processing

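Of the comparisons above, the share of mural cells, the share of contractile-high cells and *Chd8* depend on single libraries. The difference in the share of mural cells ranged from -1.97 to 4.32 points when each library was left out and from 1.17 to 1.61 points under the other alternatives, with no mitochondrial limit among them, which was chosen after seeing the data. The difference in contractile-high cells ranged from -30.1 to 1.10 points over the left-out libraries and from -15.7 to -13.2 points otherwise, that in dividing cells from -6.06 to -1.51 points, and it was 2.66 points after thinning. The log2 change of *Chd8* ranged from -0.14 to 1.38 over the left-out libraries, and it was 0.40 with the replicate block. Genes called for the genotype were 1 with the replicate block and 19 with no filter on low counts. The 19 included *Unc5d* and *Lhfpl3*, *Pdgfra*, *Pf4* and *Cx3cr1*, which are markers of other cell types. The count was 0 under every other alternative and with each library left out. The replicate block changed no other call.

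The count of genes that differed from fibroblasts was 1198, and it was 534 without the library block and 630 with DESeq2. For contractile-high against contractile-low cells it was 753, with 400 without the library block, 1269 with no filter on low counts and 659 to 798 with each library left out. The counts against endothelial cells (2440; 2366 to 2666 with each library left out) and all other cells (5238; 4292 to 5259) stayed within 1.5 times. For the 82 results of single genes named in these comparisons, where a gene can stand in more than 1 comparison, 654 of 675 alternatives kept direction and call, none reversed, and 19 lost the call, 17 of them with DESeq2. Leaving out a library against fibroblasts would leave 1 library, and was not run. The cause of these differences was not tested. Control replicate 1 held 35 mural cells, and the fibroblast comparison rests on 27 fibroblasts.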
